A study of Rattus norvegicus with 6 samples.

Results

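The genes described here are the eIF2 alpha kinases, their substrate and the genes that reverse or restrain the modification: Eif2ak1, Eif2ak2, Eif2ak3, Eif2ak4, Eif2s1, Ppp1r15a, Ppp1r15b and Dnajc3. They were chosen by symbol, with earlier results of these data known. All 8 were found among the 26126 entries of the deposited count table and passed the low-count filter that left 14488 entries. RNA was sequenced from H9c2 cells, a line grown from embryonic rat heart muscle, in 6 libraries. All of them, controls included, were labelled as exposed to ischemia and reperfusion in culture and as carrying an adenovirus, which was a control virus in 3 libraries and a virus labelled adPERK in 3. The ischemic step was an acidic buffer with 2-deoxyglucose and lactate under nitrogen and carbon dioxide, with the chamber flushed for 30 min and then sealed for 1.5 to 3.5 h. The labels give no virus dose, no length of reperfusion and no species or tag for the PERK sequence, and do not say whether replicates were separate cultures, so the p-values describe spread among these 6 libraries, which may be technical.

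Phosphorylation of eIF2 alpha, the product of Eif2s1, blocks the exchange factor eIF2B, so that most translation slows while some messages, Atf4 among them, are translated more. Each kinase reads a different stress: HRI (Eif2ak1) heme shortage and mitochondrial damage, PKR (Eif2ak2) double-stranded RNA, PERK (Eif2ak3) unfolded protein in the endoplasmic reticulum, and GCN2 (Eif2ak4) uncharged tRNA. GADD34 (Ppp1r15a) and CReP (Ppp1r15b) bring protein phosphatase 1 to eIF2 alpha and reverse the mark, and GADD34 is itself made in response to it. P58IPK (Dnajc3) is a co-chaperone in the endoplasmic reticulum that was named as an inhibitor of PKR.

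Total counts were 77923398 to 119087414 per library, and a member had between 1866 counts (Eif2ak3 in control replicate 3) and 17759 counts (Eif2s1 in PERK replicate 2). The step that best fitted the low counts of a library was 5.45 to 5.7 counts, and how strongly they recur at it was not measured. Such a search returns a best step for any counts, so it does not show that they recur. How many separate fragments a count stands for is not known. Control replicate 3 stood apart, with 45.4% of 1090 olfactory receptor entries above 0 against 6.24% to 14.5% in the other libraries. Markers of striated muscle and myoblasts were uneven. Myog stood at 486 ± 10.2 CPM (counts relative to the TMM-scaled library total) in control libraries and 400 ± 9.25 in PERK libraries (SD, n = 3). Tnnt2 had 13559 to 19202 counts and Myod1 6432 to 9945. Chrna1, Des and Actc1 were lower, at 747 to 1096, 452 to 572 and 430 to 694 counts. Myf5 had 0 counts in all 6 libraries and Myh7 had at most 46. Of 4 cardiac markers, Nppa had 0 counts in all 6 libraries, Myh6 and Nkx2-5 had at most 14 and 27, and Gata4 had 280 to 497. Of the fibroblast markers, the collagen Col3a1 was abundant, at 16670 and 17340 CPM, while Pdgfra had 7 to 34 counts per library. Markers of other cell types were mixed. Of the epithelial markers, Epcam, Cdh1 and Krt18 had at most 22 counts in any library but Krt8 had 3116 to 4964. Of the leukocyte markers, Ptprc and Cd68 had at most 17 and 40 counts, Csf1r had 54 to 108 and Cd14 had 594 to 1173. Of the endothelial markers, Cdh5, Kdr and Vwf had at most 26 counts, while Tek had 63 to 173. Tek was lower in every PERK library than in every control (log2 fold change -0.82, edgeR adjusted p = 0.225). Gata4, Col3a1 and Krt8 were higher in every PERK library (log2 fold changes 0.39, 0.06 and 0.07, edgeR adjusted p = 0.482, 0.209 and 0.51). Groups that did not overlap were seen in 18.2% of all entries tested.

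Of the 8 genes 1 changed between the groups. It was Ppp1r15a, which was higher in the PERK libraries. With edgeR's quasi-likelihood test and an adjusted p under 0.05, 1 of 8 members was called, against 0.421% of all 14488 entries tested. As earlier results were known when the members were chosen, this share describes the list and does not test it. The other 7 had log2 fold changes between -0.03 and 0.12, and none of them had an unadjusted p under 0.05, a level reached by 11.2% of all entries. The median log2 fold change was 0.04 over the 8 members and -0.0045 over all entries tested. The groups did not overlap for 2 members, Ppp1r15a and Eif2ak2, where 18.2% of all entries had groups that did not overlap. The authors' deposited table calls the same single member (Ppp1r15a, log2 fold change 0.67, adjusted p = 5.73e-16), where 2.27% of its 17483 entries with an adjusted p are called. That table holds the same counts, so this is not a separate test. Its mean expression for Ppp1r15a is 9067, while the 6 deposited normalized signals average 8132, so other values may enter its fit.

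**Figure D1:**
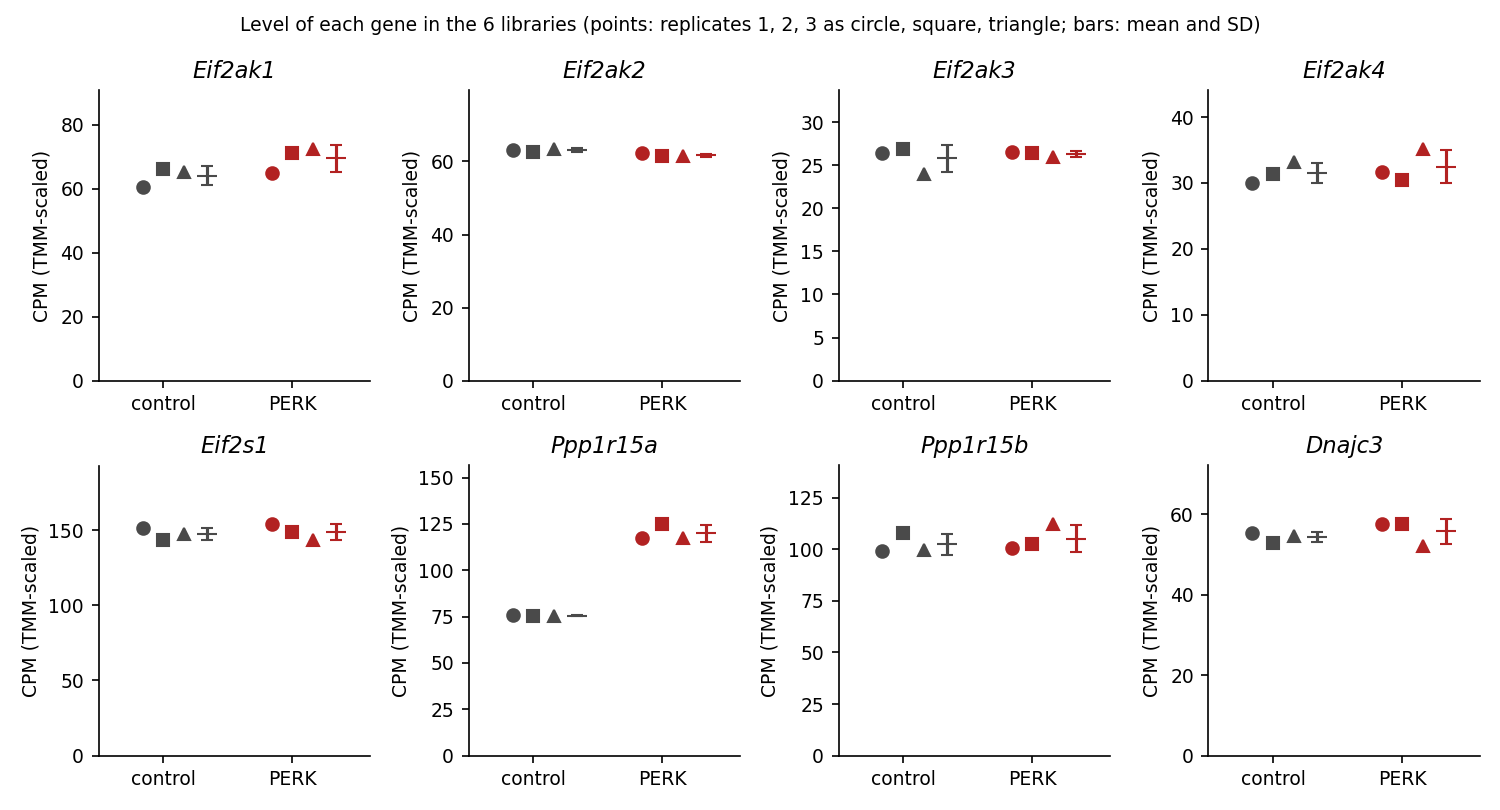
Level of each of the 8 genes in CPM (vertical axis, from 0) in the 3 control and 3 PERK libraries, with replicates 1, 2 and 3 as circle, square and triangle and bars for the mean and SD. Ppp1r15a lies between 75.1 and 75.8 CPM in control and between 117 and 125 CPM in PERK libraries, and for the other genes the log2 fold change is at most 0.12.

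Eif2ak3 is the gene that the virus was labelled to add, and its count was not higher under that label. In control replicates 1, 2 and 3 it stood at 26.4, 26.9 and 24.0 CPM. In PERK replicates 1, 2 and 3 it stood at 26.5, 26.5 and 26.0 CPM. All 3 PERK libraries thus lay inside the control range, and control replicate 3 was the lowest of the 6. The log2 fold change was 0.03 (SE 0.06, 95% interval -0.10 to 0.16, edgeR adjusted p = 0.887), and without control replicate 3 it was -0.02. As a change in level the interval runs from -6.63% to 11.6%. This interval covers reads that were counted on the rat gene, and whether reads of the added sequence fall there was not tested. Every direction below therefore rests on the labels of the libraries.

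Eif2ak3 was also read against the other kinases of the same library, which needs no scaling between libraries. Its counts divided by the summed counts of Eif2ak1, Eif2ak2 and Eif2ak4 were 0.172, 0.168 and 0.148 in control replicates 1 to 3. The same ratio was 0.167, 0.163 and 0.153 in PERK replicates 1 to 3. The highest and the lowest ratio were both in control libraries. On the log2 scale the groups differed by -0.01 (exact permutation test, two-sided, p = 0.9, with 0.1 the smallest p that 3 against 3 libraries allow).

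Eif2ak1, which encodes HRI, had the largest estimate among the kinases, and it did not pass the test. Control replicates 1 to 3 gave 60.6, 66.2 and 65.3 CPM, and PERK replicates 1 to 3 gave 64.7, 71.0 and 72.5 CPM. PERK replicates 2 and 3 lay above all controls, while PERK replicate 1 lay below control replicates 2 and 3. The log2 fold change was 0.12 (SE 0.06, 95% interval -0.02 to 0.25, edgeR adjusted p = 0.509). In the RefSeq gene table Ankrd61 lies inside Eif2ak1, and without stated strand use their reads cannot be told apart, although Ankrd61 had only 13 to 30 counts in any library.

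Eif2ak2, which encodes PKR, was the most even of the 8 genes. Control replicates 1 to 3 gave 63.2, 62.6 and 63.5 CPM, and PERK replicates 1 to 3 gave 62.2, 61.4 and 61.6 CPM. Every PERK library was below every control library, yet the step between the groups was small. The log2 fold change was -0.03 (SE 0.04, 95% interval -0.12 to 0.06, edgeR adjusted p = 0.822), and the highest library was 1.03 times the lowest. The coefficient of variation within a group was 0.775% in control and 0.689% in PERK libraries. Each rests on 3 libraries, and edgeR's estimate for Eif2ak2, which also draws on other entries, was larger, at 6.04%. An lncRNA and a predicted gene that overlap Eif2ak2 in the RefSeq table were not among the counted entries.

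Eif2ak4, which encodes GCN2, varied more within a group than between the groups. Control replicates 1 to 3 gave 30.0, 31.3 and 33.2 CPM, and PERK replicates 1 to 3 gave 31.7, 30.4 and 35.2 CPM. Replicate 3 was the highest of each group. The log2 fold change was 0.04 (SE 0.07, 95% interval -0.11 to 0.19, edgeR adjusted p = 0.859), and it was -0.02 without PERK replicate 3.

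Eif2s1, the substrate of these kinases, did not pass the test. Control replicates 1 to 3 gave 151, 143 and 147 CPM, and PERK replicates 1 to 3 gave 154, 148 and 143 CPM. The groups overlapped almost fully, and the log2 fold change was 0.01 (SE 0.04, 95% interval -0.08 to 0.11, edgeR adjusted p = 0.934). Its sign turned with total-count scaling, where it was -0.0027, and without control replicate 2 or PERK replicate 1. The RefSeq table lists 3 pseudogenes of Eif2s1, none of them among the counted entries, so reads from near-identical copies may be included.

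**Figure D2:**
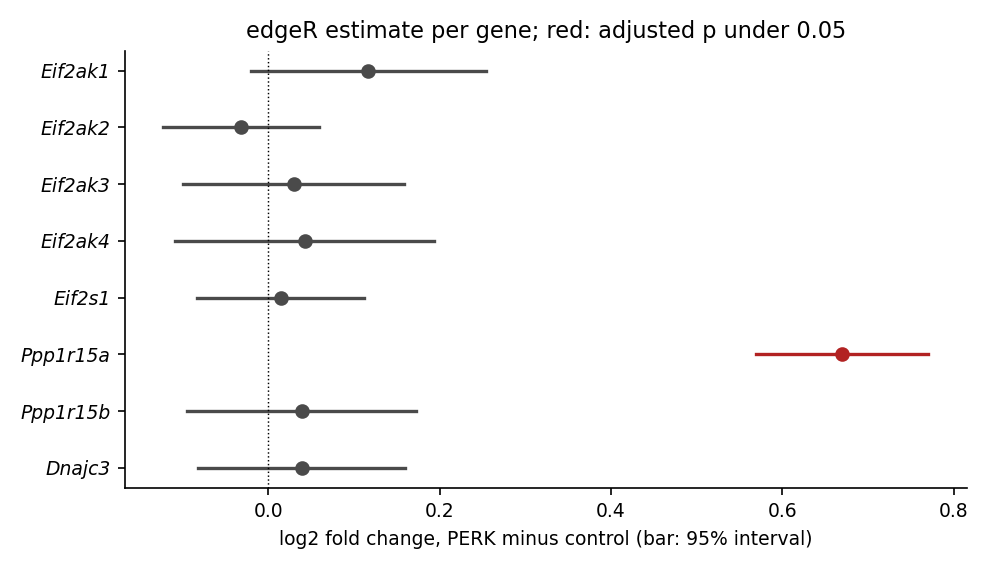
Log2 fold change of each gene, PERK minus control, from edgeR (horizontal axis; points are estimates and bars are 95% intervals; red marks an adjusted p under 0.05). The interval of Ppp1r15a runs from 0.57 to 0.77, and the intervals of the other 7 genes contain 0.

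Ppp1r15a, the inducible phosphatase subunit GADD34, rose. In control replicates 1 to 3 the values were 75.8, 75.1 and 75.4 CPM. PERK replicates 1 to 3 gave 118, 125 and 117 CPM. The control libraries were nearly identical, with a coefficient of variation of 0.411%, and every PERK library lay far above them. The PERK libraries spread more, with a coefficient of variation of 3.78%. Each of these values rests on 3 libraries, and edgeR's estimate for Ppp1r15a, which also draws on other entries, was larger, at 6.48%.

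The rise of Ppp1r15a was 1.59-fold (log2 fold change 0.67, SE 0.04, 95% interval 0.57 to 0.77, edgeR adjusted p = 0.00204). It had the rank of 2 by p-value among the 14488 entries and of 1031 by size of change. The rank by size includes entries near 0 CPM with wide errors. One was AABR07001037.1, ranked 79, with 0.449 CPM in control and 0.0874 in PERK libraries (log2 fold change -2.33, SE 1.66, not called). Ppp1r15a passed the test in all 15 alternative fits, with log2 fold changes of 0.64 to 0.69. Without control replicate 3 it was 0.67. The level of Myog fell over the same libraries (log2 fold change -0.28, edgeR adjusted p = 0.0137), and the summed level of 8 striated muscle and myoblast markers was 742 to 787 CPM of total counts in control and 653 to 678 in PERK libraries. Nearly all of that difference was Myog, since the other 7 markers summed to 270 to 287 CPM in control and 265 to 278 CPM in PERK libraries. The part of Myog, of the low Tek or of the higher Gata4, Col3a1 and Krt8 in the Ppp1r15a result was not tested. In bulk RNA, more cells that make a message and more message per cell cannot be told apart.

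Ppp1r15b, the constitutive subunit CReP, did not pass the test. Control replicates 1 to 3 gave 99.4, 108 and 99.7 CPM, and PERK replicates 1 to 3 gave 101, 102 and 112 CPM. The groups overlapped, and the highest PERK value was in replicate 3. The log2 fold change was 0.04 (SE 0.06, 95% interval -0.09 to 0.17, edgeR adjusted p = 0.855), and it was -0.01 without PERK replicate 3. The RefSeq table lists 1 pseudogene of Ppp1r15b, which was not among the counted entries.

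The count ratio of the phosphatase subunits did not overlap between the groups. Ppp1r15a had 0.762, 0.696 and 0.757 counts for each count of Ppp1r15b in control replicates 1 to 3. It had 1.17, 1.22 and 1.04 in PERK replicates 1 to 3. The lowest PERK ratio was above the highest control ratio, with a mean log2 difference of 0.63. The exact permutation test gave p = 0.1 (two-sided), which is the smallest that 3 against 3 libraries can give. These are ratios of counts, not of transcripts, because the counts are not divided by gene length.

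**Figure D3:**
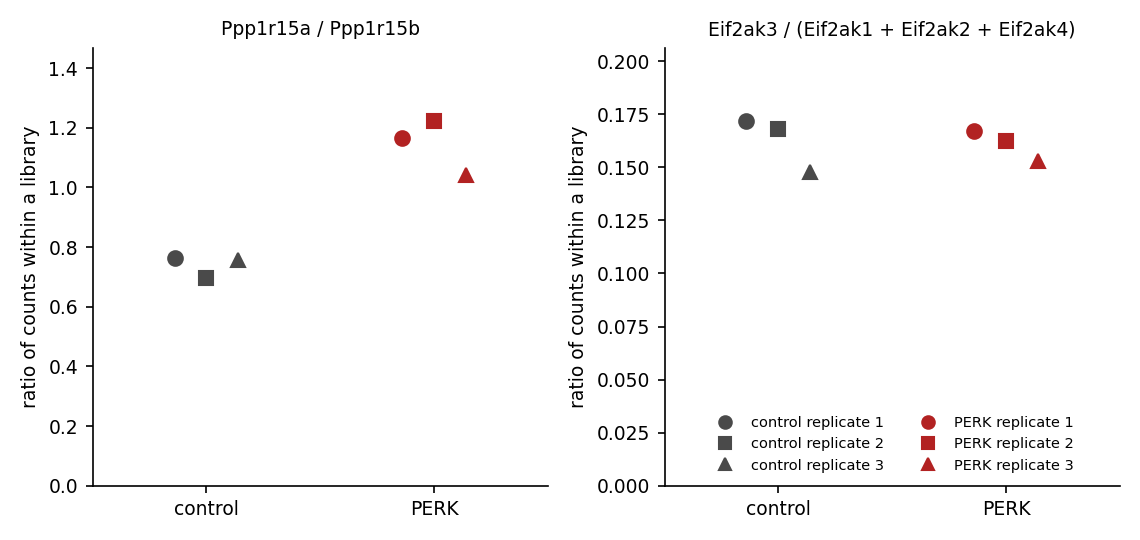
Ratios of counts within each library (vertical axes, from 0), with Ppp1r15a over Ppp1r15b on the left and Eif2ak3 over the other kinases together on the right, for control and PERK replicates 1 to 3. The left ratio is 0.696 to 0.762 in control and 1.04 to 1.22 in PERK libraries, and the right ratio is 0.148 to 0.172 and 0.153 to 0.167.

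The sequences before the transcription starts of the phosphatase subunits are shown because one gene of the pair rose and the other did not pass the test, and that of Dnajc3 because it holds a rare match. They are RefSeq sequences of build GRCr8, 250 bases each, 5′ to 3′ along the gene, and lie at chr1:105139597-105139846 on the minus strand (Ppp1r15a), chr13:47129750-47129999 on the plus strand (Ppp1r15b) and chr15:102432417-102432666 on the plus strand (Dnajc3). Capitals mark a cyclic AMP response element (CRE) and then an AP-1 motif in Ppp1r15a, a C/EBP-ATF response element (CARE) in Ppp1r15b and an endoplasmic reticulum stress element (ERSE) in Dnajc3.
Ppp1r15a: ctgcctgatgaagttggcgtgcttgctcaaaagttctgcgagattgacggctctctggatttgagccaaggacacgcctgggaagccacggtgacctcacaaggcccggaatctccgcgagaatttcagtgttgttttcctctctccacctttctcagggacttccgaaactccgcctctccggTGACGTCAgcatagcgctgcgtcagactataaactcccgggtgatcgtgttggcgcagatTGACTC
Ppp1r15b: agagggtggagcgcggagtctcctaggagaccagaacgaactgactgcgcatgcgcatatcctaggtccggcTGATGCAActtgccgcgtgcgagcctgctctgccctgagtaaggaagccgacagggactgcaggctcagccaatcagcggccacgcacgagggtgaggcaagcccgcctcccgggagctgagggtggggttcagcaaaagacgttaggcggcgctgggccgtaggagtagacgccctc
Dnajc3: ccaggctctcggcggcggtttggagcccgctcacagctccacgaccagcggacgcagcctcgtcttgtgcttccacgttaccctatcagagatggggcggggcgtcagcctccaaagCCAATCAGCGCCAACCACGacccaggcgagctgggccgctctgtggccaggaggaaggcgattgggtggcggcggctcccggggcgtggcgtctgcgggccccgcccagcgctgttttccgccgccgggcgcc

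The motifs were searched on both strands in windows of 300 bases, from 250 before to 50 after the start, and all 8 members had such a window. The CRE, TGACGTCA, bound by ATF and CREB factors, lies at -66 to -59 of Ppp1r15a and is found in 1.83% of 33469 windows. The AP-1 motif, TGANTCA, bound by Fos and Jun factors, lies at -6 to 1 of Ppp1r15a, so that its last base falls past the printed stretch, and is found in 7.33% of windows. The CARE, TGATGNAA, bound by ATF4 with C/EBP partners, lies at -178 to -171 of Ppp1r15b and is found in 3.98% of windows. The ERSE, CCAAT and CCACG with 9 bases of any kind between them, bound by ATF6 with NF-Y, lies at -133 to -115 of Dnajc3 and is found in 0.0657% of windows. An interferon-stimulated response element, GAAA repeated after any 2 bases, lies at -16 to -7 of Eif2ak2 and is found in 3.92% of windows. A further unfolded protein response element, TGACGTGG, which shares its opening letters with the CRE, matched none of the 8 windows and 0.595% of all. These matches describe letters only, and no binding was measured here.

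Dnajc3, the restraining co-chaperone P58IPK, did not pass the test. The 3 control libraries gave 55.4, 52.9 and 54.5 CPM, and the 3 PERK libraries gave, in replicate order, 57.5, 57.7 and 52.1 CPM. PERK replicates 1 and 2 were the highest libraries and PERK replicate 3 the lowest. The log2 fold change was 0.04 (SE 0.05, 95% interval -0.08 to 0.16, edgeR adjusted p = 0.835).

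PERK replicate 3 stood at or next to the end of the 6 libraries in several of these genes at once. It had the highest level of the 6 libraries for Eif2ak1, Eif2ak4 and Ppp1r15b and the lowest for Dnajc3. For Eif2ak1 it was close to PERK replicate 2 (72.5 and 71.0 CPM), and PERK replicate 1 lay apart at 64.7 CPM. For Eif2s1 PERK replicate 3 was the next to lowest, after control replicate 2, and PERK replicate 1 was the highest. Its Ppp1r15a level, 117 CPM, was close to that of PERK replicate 1. Its smaller ratio of Ppp1r15a to Ppp1r15b, 1.04, thus came with a high Ppp1r15b.

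The pathway around these genes was read from 5 lists. Of all entries tested, 0.421% were changed, so a count of 0 in so short a list does not set its genes apart. The other subunits of eIF2 and its exchange factor, with related initiation factors, had 0 of 11 tested genes changed and a median log2 fold change of 0.08. Eif2b5, the catalytic subunit of eIF2B, averaged 62.9 ± 4.45 CPM over the controls and 68.1 ± 1.87 CPM over the PERK libraries (SD, n = 3), a log2 fold change of 0.12 (edgeR adjusted p = 0.509). Eif2s2, which encodes eIF2 beta, had a log2 fold change of 0.10 (SE 0.05, edgeR adjusted p = 0.51).

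Regulators of the kinases had 0 of 8 tested genes changed, against 0.421% of all entries, and a median of 0.0083. Hspa5 encodes BiP, the chaperone that holds PERK inactive, and gave 543, 534 and 528 CPM in controls 1 to 3 against 622, 600.5 and 562 CPM in the PERK libraries. All PERK libraries were above all controls, with a log2 difference of 0.15 (SE 0.04, edgeR adjusted p = 0.198, while the DESeq2 alternative gave adjusted p = 0.00574 and the other 14 gave 0.094 to 0.463). Impact, an inhibitor of GCN2, was at 0.07 (SE 0.05, edgeR adjusted p = 0.64). The catalytic subunits of protein phosphatase 1 that GADD34 and CReP recruit had 0 of 3 changed, with Ppp1ca at 0.03 and Ppp1cc at -0.05.

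Targets of ATF4 and CHOP, the transcription factors downstream of eIF2 alpha phosphorylation, had 1 of 21 tested genes higher and none lower, against 0.311% of all entries higher. Their median log2 fold change was 0.14. An unadjusted p under 0.05 was reached by 12 of the 21, against 11.2% of all entries. The list was chosen with earlier results of these data known. The changed gene was Stc2, a secreted stress glycoprotein, with 31.5, 31.5 and 31.2 CPM in controls 1 to 3 against 45.3, 41.7 and 39.5 CPM in the PERK libraries. Every PERK library was above every control, with a log2 difference of 0.42 (SE 0.05, edgeR adjusted p = 0.0217). Without any one of control replicates 1, 2 and 3 or PERK replicates 1 and 2, Stc2 no longer passed (edgeR adjusted p = 0.074 to 0.108), with log2 fold changes of 0.37 to 0.43. The count of 1 became 0 in these 5 fits and with a block for replicate number. It became 7 with DESeq2, 2 with limma voom and 3 with the robust fit, all higher. Ppp1r15a, whose rise was larger than that of Stc2, is itself known as a target of this branch and is not in the list.

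The tested genes of that list ranged from -0.08 to 0.85 on the log2 scale. Of the 21, 16 were above 0, against 48.7% of all entries. Below 0 were Cebpg (-0.08), Sesn2 (-0.05), Psat1 (-0.04), Nupr1 (-0.04) and Ddit3. The genes that follow were chosen after their values were seen. The largest estimate was for Atf3, a stress-induced transcription factor of low level here, with 2.91, 3.18 and 2.32 CPM in controls 1 to 3 against 5.65, 4.65 and 4.92 CPM in the PERK libraries (log2 fold change 0.85, SE 0.16, edgeR adjusted p = 0.0737). Ddit4, an inhibitor of mTOR signalling, and Chac1, which breaks down glutathione, had log2 fold changes of 0.44 and 0.32 (edgeR adjusted p = 0.209 and 0.237). Atf4 gave 413, 414 and 400 CPM in controls 1 to 3 against 458, 461 and 432 CPM in the PERK libraries (log2 fold change 0.14, edgeR adjusted p = 0.19). Trib3, a pseudokinase induced by ATF4 and CHOP, averaged 32.8 ± 1.61 CPM over the controls and 38.8 ± 1.08 CPM over the PERK libraries (SD, n = 3), a log2 fold change of 0.24 (edgeR adjusted p = 0.112). CHOP itself, the product of Ddit3, had a log2 fold change of -0.0012. The groups did not overlap for 11 of the 21 tested genes of the list, against 18.2% of all entries. Atf3, Ddit4, Chac1, Atf4 and Trib3 were among the 11, but none of these named genes passed the test.

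Other J proteins of the endoplasmic reticulum, where Dnajc3 also belongs, and genes of the other unfolded protein response branches had 0 of 16 tested genes changed. That count stands against 0.421% of all entries, and the list median was 0.05. Creld2, a secreted protein of the stressed endoplasmic reticulum, had a log2 fold change of 0.12 (SE 0.04, edgeR adjusted p = 0.325). Xbp1, a transcription factor of the IRE1 branch, was at 0.09 (SE 0.04, edgeR adjusted p = 0.467).

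**Figure D4:**
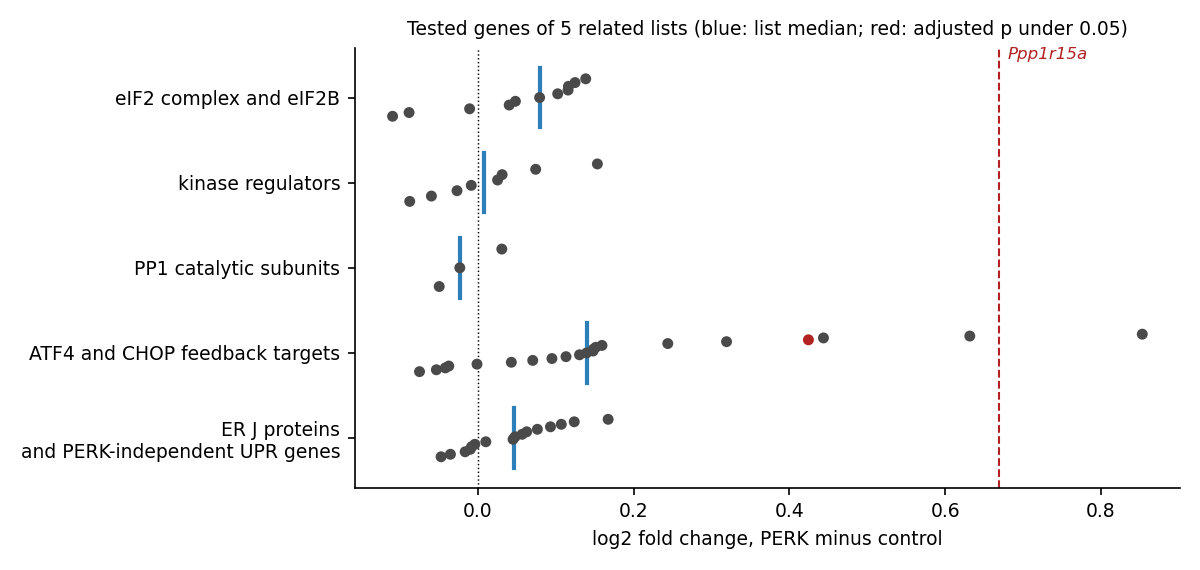
Log2 fold change, PERK minus control (horizontal axis), of each tested gene in 5 lists around eIF2 alpha (rows), with list medians as blue bars, genes past an adjusted p of 0.05 in red and Ppp1r15a as a dashed line at 0.67. Stc2 at 0.42 is the changed gene, and list medians lie between -0.02 and 0.14.

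Patterns were compared among 9265 entries with a mean of at least 5 CPM and a symbol not starting with LOC or RGD. Those most like Ppp1r15a over the 6 libraries were Anxa2, Adsl and Dph3. Their log2 CPM had Pearson correlations of 0.999, 0.997 and 0.997 with Ppp1r15a, which describe 6 libraries of 2 groups and ignore the size of a change. Anxa2, a membrane-binding annexin, averaged 560 CPM over the controls and 597 CPM over the PERK libraries (log2 fold change 0.09, edgeR adjusted p = 0.209, while the DESeq2 alternative gave adjusted p = 0.0253 and the other 14 gave 0.123 to 0.531). Adsl and Dph3 had log2 fold changes of 0.10 and 0.13, and neither passed the test. For Eif2ak3 the closest were Chst11, Tfrc and Purb, at 0.989, 0.985 and 0.983. All 3 shared the low value of Eif2ak3 in control replicate 3, where Tfrc, the transferrin receptor, was at 80.4 CPM against 90.4 to 94.8 CPM in the other libraries.

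**Figure D5:**
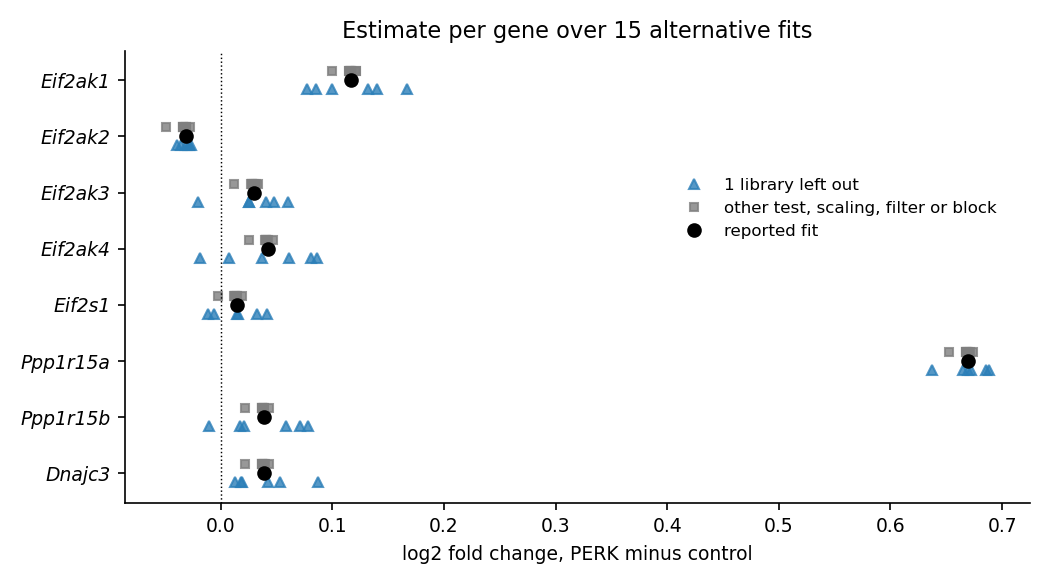
Log2 fold change, PERK minus control (horizontal axis), of each of the 8 genes (rows) in the reported fit (black circle), in 6 fits with 1 library left out (blue triangles) and in 9 other fits that change the test, scaling, filter, count steps or block (grey squares). Ppp1r15a stays between 0.64 and 0.69, while Eif2ak3, Eif2ak4, Eif2s1 and Ppp1r15b lie on both sides of 0.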

How the data were processed

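RNA-seq libraries of H9c2 cells, 3 with a control adenovirus and 3 labelled adPERK, were grouped and numbered from their titles. The authors deposited whole-number counts per gene, which were used as deposited. Per the submitters' processing notes, Bowtie 0.12.2 and build mm9 were named, while the entries carry rat symbols. Their counting program and genome build were not given in the sources used here. Each deposited normalized signal value is the count divided by 1 size factor per library, as tested on the file, and entered no test. The authors' deposited table also holds log2 fold changes with their errors, p-values before and after adjustment, and a score from the test. A second table with 6 columns of per-sample values matching no label was not used, so levels are not compared between genes.

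In edgeR 4.0.16 (R 4.3.3), entries were filtered with filterByExpr (minimum count 10) and libraries scaled by TMM. The quasi-likelihood test had group as its only term, with Benjamini-Hochberg adjustment at 0.05 over all 14488 entries. Standard errors and 95% intervals were derived from the F statistics. Alternatives used DESeq2 1.42.0, limma 3.58.1 voom, a robust fit, other scalings and filters, counts divided by 6, a replicate block and 1 library left out. The steps were tested on simulated data.

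The members and gene lists were chosen with earlier results of these data known. Named genes are the 8 members, up to 3 changed genes of each list or else the 2 with the smallest p, and the 3 entries most correlated with Ppp1r15a and with Eif2ak3 in log2 CPM (prior count 2). Promoter sequences and gene neighbours came from RefSeq tables of GRCr8. Counts of the lists under the alternatives were added after seeing the data.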

Additional observations from a re-analysis of the deposited data

How the results depend on the processing

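Ppp1r15a passed an adjusted p of 0.05 in all 15 alternatives, with log2 fold changes of 0.64 to 0.69 and its largest adjusted p, 0.0285, with the replicate block. The count of changed members was 1 in each of them. None of the 105 fits of the other 7 members passed, and 6 of these fits, of 4 members, had the other sign. With 1 library left out, Eif2ak3 ranged from -0.020 (without control replicate 3) to 0.060, Eif2ak4 from -0.019 (without PERK replicate 3) to 0.087, Ppp1r15b from -0.010 (without PERK replicate 3) to 0.078, and Eif2s1 from -0.011 (without PERK replicate 1) to 0.042. Eif2s1 was also -0.0063 without control replicate 2 and -0.0027 with total counts. Chst11 ranged from -0.070, Tfrc from -0.047 and Purb from -0.0086, all without control replicate 3, to 0.092, 0.067 and 0.083. The 61 changed entries became 33 with total counts in place of TMM, 392 with DESeq2, 110 with limma voom, 132 with the robust fit, 94 without a filter, 93 with counts divided by 6 and 9 with the replicate block, and the cause was not tested. Leaving out 1 library gave 12 to 38, with fewer samples in each fit. The log2 ratio of Ppp1r15a to Ppp1r15b was 0.58 to 0.70 and that of Eif2ak3 to the other kinases -0.08 to 0.03 with 1 library left out, and the mean of same-numbered differences left both at 0.63 and -0.01. Same-numbered libraries did not deviate together over the entries tested (correlations -0.0631, 0.0114 and 0.029). Such values cannot show whether libraries of the same number were prepared together, and the labels do not say. With the block Stc2 had edgeR adjusted p = 0.0914. Counts that may recur in steps leave the independent depth unknown.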

Other observations

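For Eif2ak2, the most even gene of the 8 over the 6 libraries, the authors' deposited table gives the largest standard error of the members, 0.142, where edgeR gave 0.04. Its mean expression there is 9879, while the mean of the 6 deposited normalized signals of Eif2ak2 is 5194. For Eif2ak1 the authors' deposited table gives a mean of 4078 where the 6 normalized signals average 5549. The sources used here do not give what other values enter those means.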
